A study of Mus musculus with 4 samples.

Results

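The circadian clock genes of the mouse liver were hypomethylated around their main start sites in all 4 mice that were profiled. In 9 of them, cytosines were also measured in the gene body outside promoters, CpG islands and island shores. The mean of that part was high in every mouse, though in Nr1d1 it held only 2 cytosines. Dbp had none there. The 10 genes were Clock, Arntl, Per1, Per2, Per3, Cry1, Cry2, Nr1d1, Nr1d2 and Dbp, and their members were the CpG cytosines inside the RefSeq gene body or within 3 kb on each side of it that had a coverage of at least 10 reads in every mouse. This rule gave 1289 cytosines of the 1276684 common to all 4 mice, with the 2 strands of a CpG counted apart. Clock held the most, with 278 cytosines, followed by Cry1 with 204, Arntl with 148, Cry2 with 129, Per2 with 127, Nr1d2 with 114, Per3 with 110, Dbp with 78, Nr1d1 with 66 and Per1 with 35. The median coverage over these cytosines and mice was 54 reads.

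Liver DNA came from males on a normal diet, aged between 6 and 8 weeks. The Mixed-1 and Mixed-2 animals had a mixed strain background, and B6-1 and B6-2 were Black-6, an inbred strain (C57BL/6). Where 4 values follow each other they are given for the Mixed mice first and the B6 mice after them, each by number. The mixed background was undefined and itself included C57BL/6J. Enhanced reduced representation bisulfite sequencing (ERRBS) cuts DNA at sites rich in CpG and reads the fragments after bisulfite treatment, so that unmethylated cytosines appear as T and methylated ones as C. The methylation level of a cytosine is the percent of its reads that show C, which does not separate 5-methylcytosine from 5-hydroxymethylcytosine, and a C-to-T base difference in an animal would be read as unmethylated. Coverage summed over the deposited cytosines, in which a read counts once for every cytosine it covers, came to between 60654199 and 99215153 per mouse, and both B6 mice were deeper than both Mixed mice. The strains were kept at different institutions, so strain, housing and depth cannot be told apart. The whole liver was used, and the time of day at which it was taken is not given in the sources used here. Among the hepatocyte marker genes, 3 of 9 had at least 1 common promoter cytosine, with means over the 4 mice of 0.651% for Apoa2, 28.7% for Hnf4a and 30.0% for Fgb, while the leukocyte markers Spi1 and Cd79b were at 77.7% and 82.6%.

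The clock is a feedback loop of transcription. CLOCK and BMAL1, the product of Arntl, bind DNA as a pair at a short motif called the E-box and switch on the Period genes (Per1, Per2, Per3) and the Cryptochrome genes (Cry1, Cry2), whose proteins return to the nucleus and hold CLOCK and BMAL1 back. The nuclear receptors REV-ERB alpha and beta, encoded by Nr1d1 and Nr1d2, repress Arntl in a linked loop, and DBP is a transcription factor under E-box control that drives rhythmic genes of liver metabolism. The E-box letters CACGTG contain a CpG, and binding of this class of factors is known to be sensitive to its methylation, so ERRBS reads the modification inside the motif where a fragment covers it.

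The start regions of Cry1 and Per1 are shown because both hold an E-box and because they differ in CpG density. They run from 250 bases before to 50 bases after a start site and come from the RefSeq promoter table (GRCm38.p6), each on the strand of its gene. Capitals mark CpGs with a common cytosine. The Cry1 region was chr10:85185005-85185304 on the minus strand, and the Per1 region was chr11:69098699-69098998 on the plus strand.
Cry1 start region: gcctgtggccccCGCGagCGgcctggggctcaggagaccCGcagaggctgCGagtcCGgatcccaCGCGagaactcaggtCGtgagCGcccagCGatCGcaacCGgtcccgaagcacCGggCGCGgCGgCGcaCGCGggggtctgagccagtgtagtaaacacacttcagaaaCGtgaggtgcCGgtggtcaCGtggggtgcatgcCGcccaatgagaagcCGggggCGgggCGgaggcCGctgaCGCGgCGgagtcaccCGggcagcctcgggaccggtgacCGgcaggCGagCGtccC
Per1 start region: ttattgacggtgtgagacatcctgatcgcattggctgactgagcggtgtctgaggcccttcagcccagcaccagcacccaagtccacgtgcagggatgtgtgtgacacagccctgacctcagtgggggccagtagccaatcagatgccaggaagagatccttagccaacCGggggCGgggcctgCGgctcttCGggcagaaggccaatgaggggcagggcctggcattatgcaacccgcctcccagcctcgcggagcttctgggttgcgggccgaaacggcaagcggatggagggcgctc
The Cry1 region held 38 CpGs and 56 common cytosines with a mean of 0.119% over the 4 mice. The Per1 region held 16 CpGs, of which 4 cytosines were covered in every mouse, and all 4 were at 0% in every mouse. Its E-box, upstream of these 4, had no common cytosine.

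The windows of 40 bases around the E-boxes with a common cytosine are shown next, with CACGTG in capitals and each on the strand of its gene. The motif reads the same on both strands. They lay at chr10:85185092-85185131 and chr10:85133762-85133801 for Cry1, at chr14:18238508-18238547, chr14:18238553-18238592 and chr14:18238656-18238695 for Nr1d2, at chr11:69095050-69095089 for Per1, at chr11:98774137-98774176 for Nr1d1 and at chr7:45707808-45707847 for Dbp.
Cry1 upstream of the start: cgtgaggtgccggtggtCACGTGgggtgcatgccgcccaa
Nr1d2 intron, farthest from the start: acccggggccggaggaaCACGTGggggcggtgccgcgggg
Nr1d2 intron, middle: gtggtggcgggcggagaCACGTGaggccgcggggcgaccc
Nr1d2 intron, nearest the start: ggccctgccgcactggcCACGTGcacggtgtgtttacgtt
Per1 far upstream: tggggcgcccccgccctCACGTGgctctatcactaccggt
Nr1d1 intron: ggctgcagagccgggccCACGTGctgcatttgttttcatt
Dbp intron: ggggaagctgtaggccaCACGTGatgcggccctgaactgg
Cry1 gene body: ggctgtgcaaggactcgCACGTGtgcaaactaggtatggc
All of these but the last were read as fully unmethylated, and the values follow with the E-box results.

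Cytosines were placed in zones in a fixed order. The promoter was 1000 bp on each side of a curated RefSeq start site, followed by CpG islands outside it, island shores of 2000 bp, the rest of the gene body, and the flank. Promoters took 864 of the 1289 cytosines, islands outside promoters 190, shores 79, gene bodies 150 and the flank 6, the last in Dbp only.

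For the activators, the promoter of Clock was at 0.0914%, 0.161%, 0.0625% and 0.153% in the 4 mice over 268 cytosines. The strains overlapped, and its most methylated promoter cytosine had a mean of 4.53%. Most of these cytosines, 257 of them, also lay within 1000 bp of the start of Gm7467, so the values describe a start region that the 2 genes share. The gene body of Clock was almost fully methylated, at 93.1%, 96.7%, 95.4% and 95.2% over 10 intron cytosines. The promoter of Arntl, with 105 cytosines, was at 0.276% and 0.246% in the Mixed mice and 0.193% and 0.215% in the B6 mice. Its body zone, with 34 cytosines, was at 87.2% and 85.3% against 82.7% and 83.3%. Some of these, between positions 113183842 and 113205007, lay upstream of the curated starts, the first of which is at position 113207465. They were in the zone because a predicted start at position 113178471 lengthens the annotated gene. The strains did not overlap in either zone of Arntl, and their means differed by 0.0571 percentage points in the promoter and 3.32 in the body.

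The Period genes, which encode the early repressors of the loop, fell into different patterns. The promoters of Per2 (68 cytosines) and Per3 (74 cytosines) had means of 0.0702% ± 0.0314 and 0.298% ± 0.0426 (SD, n = 4). Per1 differed, with promoter means of 33.7% and 35.4% in the Mixed mice and 33.7% and 33.1% in the B6 mice over 10 cytosines. It was the 1 clock gene of 10 (10%) with a promoter mean of 20% or more. Of all 14912 genes with at least 5 common promoter cytosines, 8.75% reached that level, a similar share. The Per1 mean joined unmethylated and methylated cytosines. The 6 cytosines within 1000 bp of the start at position 69098949 of chromosome 11 were at 0%, 1.04%, 0% and 0% in the 4 mice. The other 4 lay between 537 and 590 bp downstream of a second curated start, at position 69100152, in an exon whose coding part both transcripts share, and were at 84.3%, 86.8%, 84.3% and 82.7%.

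The methylated stretch of Per1 is printed to show how few CpGs carry this promoter mean. It lay at chr11:69100679-69100752 on the plus strand, and capitals mark the CpGs measured in all mice.
Per1 coding exon: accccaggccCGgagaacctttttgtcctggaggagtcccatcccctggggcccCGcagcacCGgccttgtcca
The most methylated of these cytosines, at position 69100734, was at 86.1%, 91.7%, 94.7% and 88.2% with a total coverage of 113 reads. The 300 bases around the later start itself held 21 CpGs and 0 common cytosines, so the methylation at that start was not measured. With promoters of 500 bp the Per1 mean was 0.260%, with promoters of 2000 bp it was 44.2%, and with the predicted RefSeq start sites added it was 16.3%, because 3 predicted starts upstream of the curated ones sit in unmethylated DNA. The 11 cytosines within 1000 bp of the most upstream of these, at position 69095108, had a mean of 0.266%.

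The Cryptochrome promoters were unmethylated. Cry1 was at 0.0801%, 0.0890%, 0.0966% and 0.139% over 187 cytosines. Cry2 was at 0.050%, 0.279%, 0.364% and 0.583% over 26 cytosines, which was below 1% in every mouse and lower in both Mixed mice than in both B6 mice. The body of Cry1 had a mean of 95.9% ± 1.82 (SD, n = 4) over 8 cytosines. This was above 98.1% of the 9785 genes with at least 5 common body cytosines. All 8 lay between positions 85133731 and 85133802, near the end of the gene, and the rest of the body zone was not measured. The body of Cry2 had a mean of 81.8% ± 1.75 (SD, n = 4) over 14 cytosines. At the far end of Cry2, 85 island cytosines and 4 shore cytosines lay within 1000 bp of the start of Mapk8ip1, a scaffold protein of the JNK pathway. They had means of 2.41% and 0.467% and belong as much to that gene. In the same way, all 25 island and 13 shore cytosines in the flank of Per2, with means of 0.161% and 0.703%, lay at the start of Hes6, a gene of the Hairy and Enhancer of split family.

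The REV-ERB genes and Dbp had promoters of the same kind. Nr1d1 was at 0.244%, 0%, 0% and 0.173% over 12 cytosines, and Nr1d2 was at 0.0999%, 0.0278%, 0.126% and 0.154% over 97. Dbp was at 0.325%, 0.147%, 0.704% and 0.0865% over 17. The lowest and highest values of Dbp were both from B6 mice, so the strains overlapped. The body of Nr1d2 had a mean of 92.4% ± 2.23 (SD, n = 4) over 11 intron cytosines. Nr1d1 left 2 cytosines in the body zone, since its short gene is covered by promoter, islands and shores, and Dbp left 0.

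**Figure D1:**
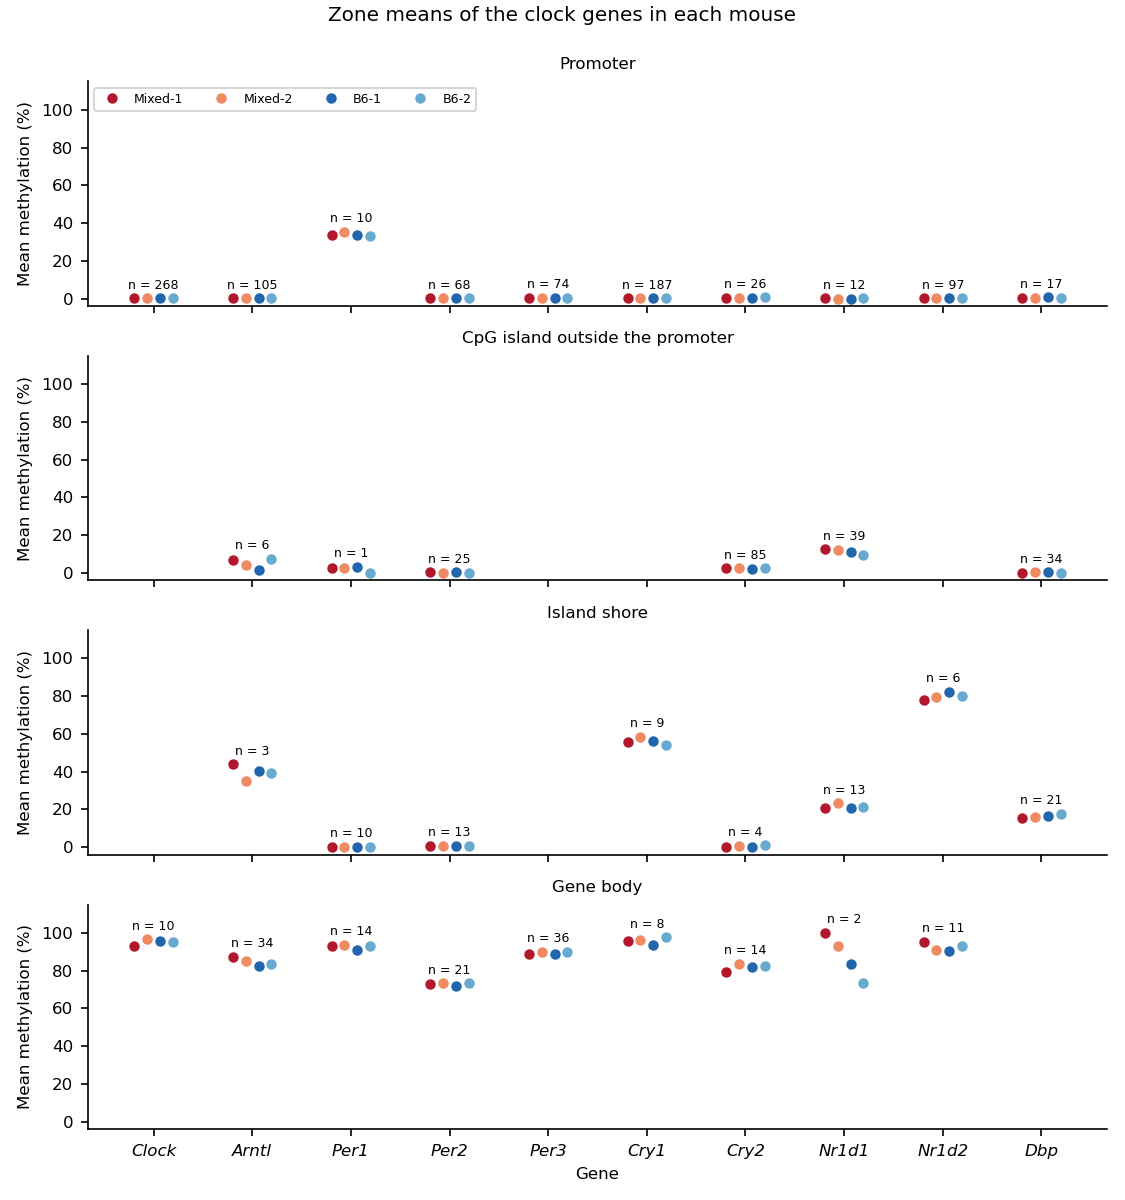
Mean methylation in percent (vertical axes) of each clock gene (horizontal axis) by zone, with 1 point per mouse in red shades for Mixed and blue shades for B6, and n giving the cytosines in each mean. Promoters lie near 0 except for Per1 at about 34.0%, bodies have means over mice of 72.9% or more, and shores are spread between these levels.

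Over all 10 genes, 9 promoter means (90%) were below 1%, beside 64.9% of the 14912 genes with at least 5 common promoter cytosines. The median promoter mean of the clock genes was 0.175%, and that of all these genes was 0.315%. The quartiles of all these genes were 0.138% and 2.12%, and 9 of the 10 clock promoters lay below the upper one. Of the 8 clock genes with at least 5 body cytosines, the median body mean was 90.8%, beside 82.2% for the 9785 genes of that set. Per2 was the lowest of them with 72.9% ± 0.671 (SD, n = 4) over 21 cytosines, and Cry1 and Clock, at 95.1% ± 1.5 for Clock, were the highest. The Cry1 value came only from the short stretch near the end of the gene.

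Within each mouse, the body was more methylated than the promoter in each of the 9 genes with both zones. The mean difference over these genes was 85.6 and 85.1 percentage points in the Mixed mice and 82.7 and 82.9 in the B6 mice. The difference was positive in all 4 mice, and the exact two-sided sign-flip permutation test over mice gave p = 0.125, the smallest value that 4 mice allow. The smallest mean difference was 58.8 points ± 1.14 (SD, n = 4) in Per1 and the largest was 95.8 ± 1.81 in Cry1. The body of Cry1 was measured only in a short stretch near its end. Exon cytosines of the body zone had a mean of 89.6% ± 0.428 over 51 cytosines of 5 genes, and intron cytosines had a mean of 85.4% ± 0.920 over 88 of 9 genes. The 2 sets thus hold different genes. Body cytosines outside curated transcripts, upstream of the curated starts of Arntl and at position 151001000 in Per3, are in neither set.

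Unmethylated blocks were measured by walking outward from the main start site over consecutive common cytosines that were below 20% in every mouse. The main start site was the curated one with the most common cytosines near it. Within the gene regions these blocks held 268 cytosines in Clock, 190 in Cry1, 112 in Arntl, 97 in Nr1d2, 74 in Per3, 68 in Per2, 66 in Dbp, 52 in Nr1d1, 26 in Cry2 and 17 in Per1. The median block length was 1839.5 bp. In Per2 the block spanned 576 bp, in Cry2 996 bp, in Nr1d2 1381 bp, in Clock 1497 bp, in Cry1 1690 bp, in Arntl 1989 bp and in Dbp 3394 bp. In Per1, Nr1d1 and Per3 it spanned 10778, 10640 and 14118 bp, but each of these contained a stretch with no common cytosine, of 5884 bp, 7554 bp and 12223 bp, across which the state was not measured. The blocks of Per1 and Per3 ran up to the starts of Vamp2 and Vamp3, which encode vesicle fusion proteins.

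Beyond each block lay a stretch with no common cytosine, so the first cytosine past it limits how far from the start methylation began and does not place the change. On the upstream side this cytosine was nearest in Nr1d2, 1334 bp before the start at position 18240440, after 808 bp without a common cytosine, where the mice were at 34.5%, 58.8%, 55.3% and 51.6%. In Dbp it lay at 1413 bp, after 637 bp, where position 45703834 was at 42.9%, 37.5%, 39.3% and 52.8%. In Arntl it lay at 2270 bp, after 1453 bp, where position 113205195 was at 100%, 83.3%, 88.1% and 93.1%. In the other genes with a value the next upstream cytosine was between 11505 and 42045 bp away, after 829 to 41364 bp without a common cytosine, and had a mean of at least 79.3%. No further common cytosine was found within 50 kb upstream of Cry1 or downstream of Clock.

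On the downstream side the last cytosine of the block was 101 bp from the start in Per1, 236 bp in Per2, 656 bp in Per3, 710 bp in Cry2, 815 bp in Clock, 854 bp in Nr1d2, 1171 bp in Arntl, 1316 bp in Cry1, 2523 bp in Nr1d1 and 2617 bp in Dbp. The shortest unmeasured stretch after it was 528 bp in Nr1d1, where position 98772326, 3051 bp from the start, was at 73.5%, 77.4%, 68.8% and 76.7%. In Cry1 it was 711 bp, and position 85183027, at 2027 bp, was at 93.9%, 88.6%, 70.6% and 68.8%. In Per1 it was 1639 bp, and position 69100689, at 1740 bp, was at 75.5%, 77.3%, 76% and 78.4%. The change between these levels therefore lay somewhere within each of these stretches. In Nr1d2 the next cytosine, at 2723 bp, had a mean of 87.6%. In Arntl it was at 3129 bp with a mean of 18.4%, and only B6-1, at 25%, and Mixed-1, at 20%, were at or above the bound. Each of these 2 values rested on 20 reads. The following Arntl cytosine, at position 113210630, was again low, at 12.1%, 0%, 0% and 0%. The one after that, at position 113227267, had a mean of 96.4%. In Per2, Per3, Dbp and Cry2 the next common cytosine came only at 5037, 7370, 8141 and 9189 bp, after 4801, 6714, 5524 and 8479 bp without one, and had means of 90.2%, 100%, 57.9% and 18.8%. The Cry2 cytosine, at position 92424880, was at 5.26%, 20.7%, 15.8% and 33.3%.

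**Figure D2:**
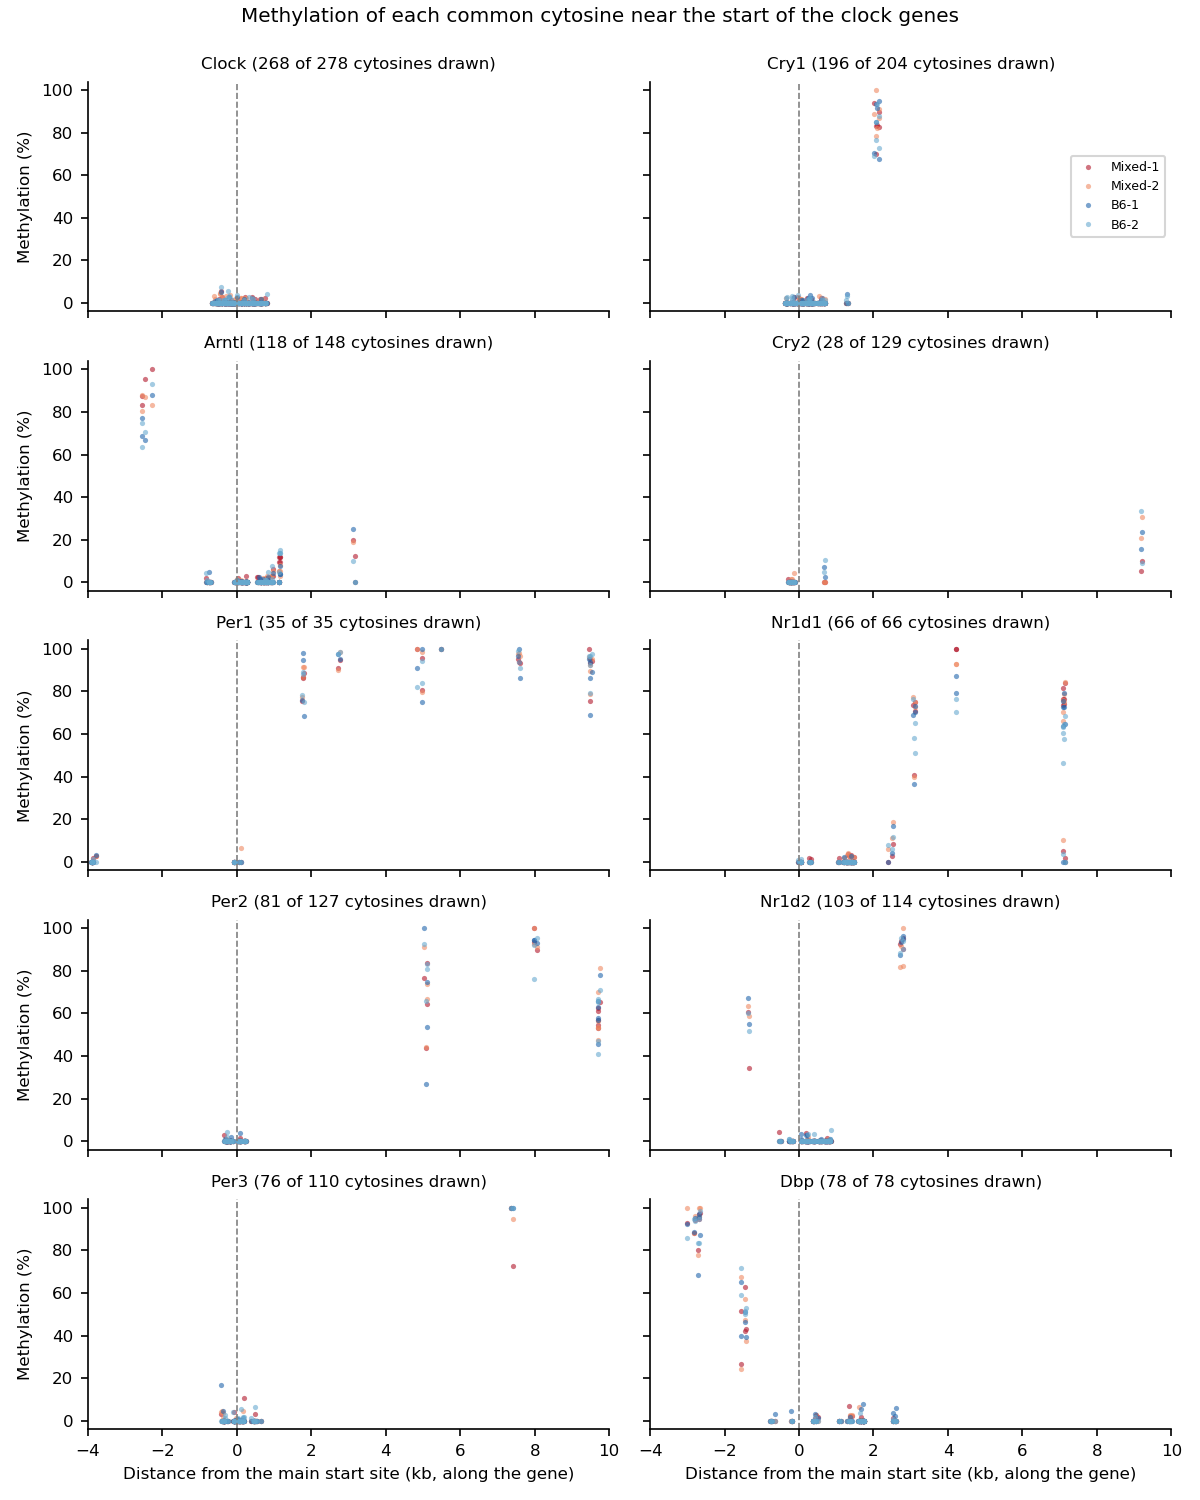
Methylation in percent (vertical axes) of each common cytosine against its distance in kb from the main start site along the gene (horizontal axes), in 1 panel per gene, with 4 points per cytosine coloured by mouse. The axis range holds 1049 of the 1289 cytosines, and in every gene the points at the dashed start line lie near 0, and the nearest measured cytosines that were methylated or partly methylated lie at least 1334 bp away.

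The first cytosines measured upstream of the Nr1d2 and Dbp blocks were partly methylated, and these stretches are printed with the measured CpGs in capitals. They lay at chr14:18240430-18240491 on the minus strand and at chr7:45703670-45703844 on the plus strand.
Nr1d2 upstream: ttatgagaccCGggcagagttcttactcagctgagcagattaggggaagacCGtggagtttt
Dbp upstream: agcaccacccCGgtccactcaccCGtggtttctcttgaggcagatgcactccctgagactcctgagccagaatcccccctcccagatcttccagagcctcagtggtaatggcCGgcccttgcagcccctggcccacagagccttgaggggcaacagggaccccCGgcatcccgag
The 2 Nr1d2 cytosines had means of 47.6%, 61.2%, 61.2% and 55.9%. The 5 Dbp cytosines had means of 45.2%, 46.6%, 48.3% and 57.0%. The Dbp stretch lies inside the neighbouring gene Car11, which encodes a carbonic anhydrase-related protein, and more than 1000 bp farther upstream the 6 flank cytosines of Dbp were at 92.0%, 93.0%, 88.8% and 91.5%.

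Shores did not have a common level. Their means over the 4 mice were 0.0772% ± 0.0908 in Per1 (10 cytosines), 0.467% ± 0.578 in Cry2 (4), 0.703% ± 0.0857 in Per2 (13), 16.5% ± 0.880 in Dbp (21), 21.6% ± 1.10 in Nr1d1 (13), 39.6% ± 3.71 in Arntl (3), 56.3% ± 1.78 in Cry1 (9) and 80.1% ± 1.88 in Nr1d2 (6) (SD, n = 4). In this order Per1 and Cry2, and Cry2 and Per2, differed by less than the SD of Cry2, while each step from Per2 upward was larger than the SDs of the genes it joined. The shore of Cry1 joined 3 cytosines near 0.700% with 2 at 89.3% and 4 at 81.4%, so its mean described no cytosine of it. That of Dbp joined 15 at 0.472% with 5 at 49.3% and 1 at 92.8%. That of Nr1d1 joined 9 at 2.74% with 4 at 64.0%, and the 3 of Arntl were at 9.3%, 18.4% and 91.1%. These means therefore describe the cytosines covered and not a level of the whole shore. The mean over the 8 genes was 26.9% ± 0.180 (SD, n = 4). With shores of 1000 bp it was 2.45% over 7 genes, since the methylated cytosines were the more distant ones.

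Islands outside promoters were mostly unmethylated, with a mean of 3.52% ± 0.474 (SD, n = 4) over 6 genes. Nr1d1 was the highest at 12.4%, 12.2%, 11.1% and 9.36% over 39 cytosines. Of these, 33 were hypomethylated in every mouse with a mean of 0.372%. Another 4 between positions 98768255 and 98768279, near the end of the gene where it overlaps Thra, had a mean of 70.0%. The best covered of the 4, at position 98768255, was at 74.1%, 78.7%, 79.2% and 57.7%. The other 2, at positions 98768236 and 98768287, changed class between mice and had a mean of 73.2%. The opposite strands of these 2 CpGs, at positions 98768237 and 98768286, had means of 0.472% and 4.68% and are counted among the 33. The cause of this strand difference was not tested. The mean over genes was sensitive to the zones, which also changed the genes in it. It was 14.7% over 4 genes with promoters of 2000 bp. With islands called on sequence with its repeats left in, it was 16.7% over 7 genes.

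The E-boxes covered in promoters and shores were unmethylated. The 10 regions held 81 copies of CACGTG, of which 8 contained a common cytosine, 11 cytosines in all. In promoters, 4 of 8 copies were covered, with 5 cytosines, and every one of these was at 0% in every mouse. The Cry1 copy, 57 bp upstream of the start on 1 strand and 58 bp on the other, had 0 methylated reads of 226, which allows a level of up to 1.33%. The Nr1d2 copies, at 431, 534 and 579 bp downstream of the start, had 0 of 191, 0 of 217 and 0 of 269 reads, which allows up to 1.57%, 1.38% and 1.12%. These limits are 3 reads of the total and cover counting error only, since PCR copies are not separate molecules.

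The shore copies gave the same reading. The Per1 copy, 3880 bp upstream of the curated start and close to the predicted ones, had 0 of 388 methylated reads, which allows up to 0.773%. The Nr1d1 copy in the gene had 0 of 261 and the Dbp copy in the gene had 0 of 129, which allows up to 1.15% and 2.33%. In contrast, the E-box in the body of Cry1, 51273 bp from the start, was methylated at 510 of 544 reads. Its plus-strand cytosine was at 95.7%, 91.2%, 95.1% and 98.4%, and its minus-strand cytosine was at 91.2%, 97.4%, 87.3% and 95.1%. It was the 1 copy covered of 57 in gene bodies, and its cytosines are among those behind the Cry1 body mean. A cytosine at 0% was common in these genes, with 819 of the 1289 at 0% in every mouse.

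The other 859 promoter cytosines of the clock genes had a mean of 0.543% ± 0.0186 (SD, n = 4), and the 4 methylated cytosines of Per1 are among them. With all 5 E-box cytosines at 0%, the sign of a difference from the others was fixed, and no test of it is given. Over all genes, the 1843 E-box cytosines in promoters had a mean of 3.40% ± 0.0403 and the other 706733 promoter cytosines had a mean of 2.75% ± 0.0374. CACGTG occurred within 1000 bp of the start in 28.0% of 31601 start sites over the genome and at 5 of the 14 curated starts of the clock genes. In the shorter RefSeq windows of 300 bp it occurred in 7.15% of 32851 windows, and in 2 of the 13 windows of the 9 clock genes that had an entry.

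Partly methylated cytosines were few. In every mouse, 1097 of the 1289 clock-gene cytosines (85.1%) were hypomethylated, below 20%, and 116 (9.0%) were hypermethylated, above 80%, beside 63.9% and 17.3% of all common cytosines. Another 34 (2.64%) lay between these bounds in every mouse, beside 6.57% of all, and 42 changed class between mice. Of the 34, 9 were in Per2, 8 in Nr1d1, 5 in Dbp, 4 in Arntl, 2 each in Per1, Per3, Cry2 and Nr1d2, and 0 in Clock and Cry1.

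The best covered of them, up to 2 per gene, differed in how far the mice spread. In an intron of Per2, position 91437797 was at 24.2%, 20.7%, 24.3% and 28.8%, with 316 reads in all, while position 91430690 was at 76.8%, 70.7%, 57.5% and 62.1% with 444 reads. In introns of Arntl, position 113256330 was at 56.9%, 58.8%, 63.4% and 54.3%, and position 113295343 was at 48.6%, 34.9%, 41.8% and 37.9%. In an exon of Per1, position 69108425 was at 75.8%, 79.0%, 69.0% and 79.3%. The spread was wider in an exon of Nr1d1, where position 98768278 was at 73.8%, 70.2%, 72.9% and 46.2%. Upstream of Dbp, position 45703783 was at 63.0%, 47.1%, 46.2% and 51.5%, and upstream of Nr1d2, position 18240481 was at 60.7%, 63.6%, 67.1% and 60.2%. In Per3, position 151033955 was at 61.5%, 50%, 55.6% and 57.1% with 90 reads in all. The opposite strand of this CpG, position 151033956, was higher, at 76.1%, 69.0%, 84.6% and 81.7% with 314 reads. Position 151001000, which also lies in Uts2, was at 48.1%, 56.8%, 50% and 79.6%, the widest spread of the 16 cytosines so chosen (SD 14.5). The Cry2 pair, 1 CpG at positions 92400980 and 92400981 in the Mapk8ip1 start region, had means of 38.1% ± 4.69 and 37.5% ± 9.01 (SD, n = 4).

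The strains were compared to ask whether background or housing changed these genes. A cytosine was called strain-variable at an adjusted p under 0.01 and a difference of at least 25 percentage points, from a quasi-likelihood logistic model of its methylated and unmethylated reads with Benjamini-Hochberg adjustment over all common cytosines. Of the 1289 clock-gene cytosines, 0 were called, beside 70 of 1276684 over the genome (0.00548%). At an unadjusted p under 0.05, 9 clock-gene cytosines passed, or 0.698%, beside 2.03% of all, and 0 of them differed by 25 points. Fisher's exact test also called 0 in the clock genes, but it pools the reads of a strain and so ignores the spread between mice. Limma on log2 ratios called 0 of all 1276684 cytosines, so its 0 in the clock genes says nothing about them. The strains did not overlap at 116 of the 1289 cytosines (9.0%), beside 16.6% of all common cytosines. The genome-wide count was unstable: it was 225 without Mixed-1, 279 without Mixed-2, 0 without B6-1 and 0 without B6-2, and the clock-gene count was 0 in each of these fits.

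The largest differences between the strains, chosen after their values were seen, were at 3 cytosines and lay between 20 and 25 points. Position 45703693 upstream of Dbp, in the partly methylated stretch above, was at 26.5% and 24.1% in the Mixed mice and 39.5% and 59.0% in the B6 mice. Position 113205007, upstream of the curated starts of Arntl, was at 95.6% and 87.2% against 66.7% and 70.6%. Position 85183027 in Cry1, the first measured beyond the unmethylated block, was at 93.9% and 88.6% against 70.6% and 68.8%. The strains did not overlap at any of the 3, and each had an adjusted p of 1 in the logistic model.

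**Figure D3:**
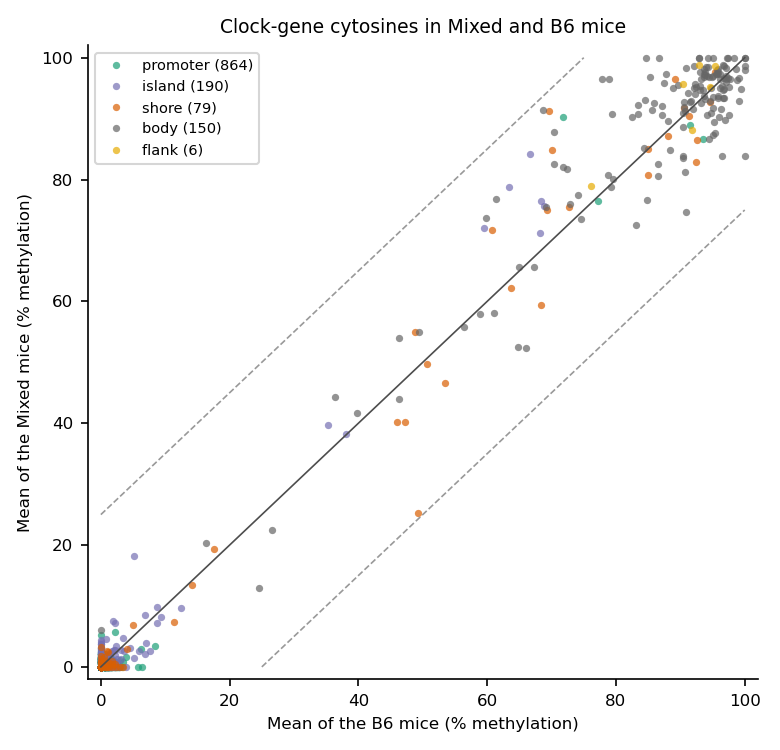
Mean methylation in percent of the 2 Mixed mice (vertical axis) against that of the 2 B6 mice (horizontal axis) for the 1289 clock-gene cytosines, coloured by zone, with the line of equality and dashed lines 25 points on each side of it. The points lie between the dashed lines, most of them in the corners near 0 and 100.

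Zone means gave the same picture. With limma on log2 ratios of the methylated to the unmethylated share, 0 of 10 clock promoters and 0 of 8 clock bodies were called at an adjusted p under 0.05, beside 0 of 14912 promoters (0%) and 0 of 9785 bodies (0%). At an unadjusted p under 0.05 the clock genes also had 0 of 10 and 0 of 8, beside 5.72% of all promoters and 7.20% of all bodies. The strains did not overlap in 7 of the 10 clock promoters, beside 35.2% of all promoters, and in 1 of the 8 clock bodies, Arntl, beside 36.7% of all bodies. In 5 of the 7 promoters the Mixed mice were lower, and the differences (Mixed minus B6) ran from -0.309 points for Cry2 to 1.14 points for Per1. The B6 libraries were the deeper ones, and the part of depth in this was not tested. The body zone of Arntl had the smallest p of the clock zones, with a log2 difference of 0.35 ± 0.15 (SE) and an adjusted p of 0.715 in limma. This zone includes the cytosines upstream of its curated starts.

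The mean over the 9 gene bodies was 89.5% and 89.2% in the Mixed mice and 86.6% and 86.8% in the B6 mice, a difference of 2.69 points with an exact two-sided permutation p of 0.333, the smallest that 2 mice against 2 allow. At a minimum coverage of 20 the difference was 0.573 points, and Nr1d1, whose 2 body cytosines were at means of 100%, 92.9%, 83.4% and 73.4%, had none left. The mean over the 10 promoters was 3.52% and 3.66% against 3.57% and 3.5%, and that over the 8 shores 26.9% and 26.7% against 27.2% and 26.8%. In both of these zones the strains overlapped.

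Of 17 further genes of the clock pathway, such as the CLOCK partner gene Npas2, the ROR receptors, the kinases Csnk1d and Csnk1e and the PAR factors Tef and Hlf, 16 had a promoter cytosine and 13 a body cytosine among 1928 in all. Over the 15 with at least 5 promoter cytosines the median promoter mean was 0.196%, and 13 were below 1%. The highest were Timeless at 9.0%, 10.5%, 10.9% and 10.4% over 16 cytosines, Rorb at 1.66% ± 1.27 (SD, n = 4) over 6 and Bhlhe41 at 0.447% ± 0.173 over 73. Timeless is the mammalian relative of a fly clock gene, Rorb encodes a ROR receptor, and Bhlhe41 encodes DEC2, a repressor that binds E-boxes. The median body mean over the 11 with at least 5 body cytosines was 82.2%. In these 17 genes 0 of the 1928 cytosines were called strain-variable, beside 70 of 1276684 over the genome (0.00548%). At so low a share, a count of 0 does not set these genes apart.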

How the data were processed

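The authors mapped single-end reads of 50 cycles to mm10 and deposited, for each mouse, a read count (the coverage) for each CpG cytosine and strand that reached 10 reads, together with the percent of C and of T among them. The paper's methods name BSMAP as the mapping tool, while the submitters' processing notes list Bismark and SAMtools, and no version is given in the sources used here. Between 0.525% and 0.811% of a mouse's cytosines had reads with another base. No other per-sample columns were present (0).

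Cytosines were placed on GRCm38 with its RefSeq annotation, and all 1608037 on nuclear chromosomes lay on a reference CpG. Zones were assigned in the order promoter, island, shore, body and flank. Islands were called on repeat-masked sequence (longer than 200 bp, GC of at least 50%, observed to expected CpG above 0.6), which gave 16099. Methylated reads were the percent times the coverage. Zone values are means over cytosines in each mouse, then mean ± SD over mice.

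Strain-variable cytosines came from a logistic quasi-likelihood F test with overdispersion moderated by limma 3.58.1 (R 4.3.3, data.table at version 1.17.8) towards 1.80, estimated from cytosines between 10% and 90% methylation, a choice made after the model was tested on simulated data. Zone means of all genes with at least 5 cytosines were tested with limma on log2 ratios with an offset of 0.01. Single values were compared with exact permutation tests over mice. Python 3.11.15, numpy 2.4.6, pandas 2.3.3, scipy 1.17.1 and matplotlib 3.10.9 were used.

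Named cytosines were, by rule, those called strain-variable, the highest promoter cytosine of a gene if at 20% or more, covered E-box CpGs, the first beyond an unmethylated block on each side, and per gene up to 2 between 20% and 80% in all mice with the highest coverage. The further pathway genes named were the 3 with the highest promoter mean and any at 20% or more. The members and lists were chosen with earlier results of these data known. Alternatives changed the coverage minimum, strand merging, pooling of reads, the promoters, islands, shores, transcripts, class bounds, motifs, thresholds and tests, and left out each mouse. The mice share the numbers 1 and 2 between strains, which is a name and not a pairing. Each mouse is 1 replicate of its strain. The result of 1 marker gene is not reported here.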

Additional observations from a re-analysis of the deposited data

Results flagged for a closer look

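The shore mean of Nr1d1 was 23.2% in Mixed-2 and between 20.9% and 21.3% in the other 3 mice, over 13 cytosines. The distance of Mixed-2 from the nearest of the others was 0.835 of the whole range, past the Dixon bound for 4 values. This was 1 of 34 zone means tested, and chance alone passes the bound in about 1 in 20 groups.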

How the results depend on the processing

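The body minus promoter difference kept its direction under every alternative run, and 0 clock-gene cytosines and 0 clock-gene zones were called in any of them. Zone means over the clock genes moved by more than the spread between mice in these cases. The promoter mean (3.56%) was 2.54% at a coverage of 20, 2.95% with strands merged, 3.23% with pooled reads, 0.156% and 5.12% with promoters of 500 and 2000 bp, and 2.52% with all RefSeq transcripts. The body mean (88.0%) was 85.5% with shores of 1000 bp and 86.0% with all sites of each mouse. The shore mean (26.9%) was 26.0% at a coverage of 20, 26.3% with pooled reads, 18.1% and 35.5% with the shorter and longer promoters, 36.1% with all transcripts, 33.2% with unmasked islands, 2.45% with shorter shores and 27.2% with all sites. The island mean (3.52%) was 1.93% and 14.7% with the shorter and longer promoters, 4.69% with all transcripts and 16.7% with unmasked islands. These settings also changed which genes had the zone, from 4 to 9 genes for islands and from 7 to 9 for shores.

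The strain difference of the promoter mean (0.0560 points) was -0.148 at a coverage of 20 and ran from -0.0118 to 0.124 when 1 mouse was left out, and that of the shore mean (-0.175) was 1.35 with pooled reads. The cause was not tested. The genome-wide count of strain-variable cytosines (70) was 243 at an adjusted p under 0.05 and 10 points, 0 with limma, 1613 with Fisher's exact test, and from 0 to 279 with 1 mouse left out. The median block was 3689 bp when the mean over mice set the bound. With bounds of 10% and 90%, 58 cytosines were hypermethylated and 54 intermediate in every mouse. With the replicate number as a block, 0 cytosines were called over the genome, and the strain difference of the body mean stayed at 2.69 points with a sign-flip p of 0.5. Deviations of same-numbered mice had a correlation of -0.000207, so the numbers were not taken as a pairing. With 2 mice per strain no exact test can pass 0.05, and at 10 reads 3 methylated reads already make a cytosine 30%.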

Other observations

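The deeper B6 libraries covered more of the clock genes. In at least 1 mouse 1510 cytosines reached 10 reads, with 1380 and 1319 in the Mixed mice and 1463 and 1455 in the B6 mice. Both B6 mice and neither Mixed mouse covered 78 of them, of which 14 were in Nr1d2, 12 in Arntl, 11 each in Cry2 and Dbp, and 10 each in Per3 and Nr1d1. The reverse held for 9, of which 8 were in Clock and 1 in Cry2.

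The 19 body cytosines in repeats had a mean of 92.9% ± 1.92 (SD, n = 4) and the other 131 had a mean of 85.6% ± 1.11. In the body of Cry2, 2 intron cytosines stood apart from the 12 exon cytosines: position 92424844 was at 9.76%, 30.8%, 23.5% and 9.09%, close to a predicted start site of the gene, while the lowest exon value in any mouse was 75%. These 2 cytosines were chosen after their values were seen.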
